A study of Mus musculus with 6 samples.

Results

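A processed pseudogene is a copy of a messenger RNA that was reverse transcribed and inserted elsewhere in the genome, so it usually lacks the introns of the gene it came from. The genes described here were all rows of the deposited expression table with the biotype processed_pseudogene or transcribed_processed_pseudogene that lay on an autosome and averaged at least 1 FPKM over the 6 libraries. FPKM counts the fragments of a gene per kilobase of its annotated length, relative to all fragments counted in that library. A level compared between genes therefore depends on those lengths. The rule found 392 genes, 367 of the first biotype and 25 of the second, among 9773 processed pseudogenes of either biotype and 54532 genes listed. Another 26 processed pseudogenes on X or Y reached the same level and were not members. Because the level chose the members, their levels are given as a description.

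RNA was sequenced from mouse macrophages differentiated out of bone marrow in culture, in 3 libraries labelled NSUN2-KO and 3 labelled NC. NSUN2 is an enzyme that methylates cytosines in tRNAs and other RNAs. Both groups received LPS and IFN-γ, which bring macrophages to the inflammatory M1 state. The labels give no strain, age or sex, do not spell out NC, and do not say how the knockout was made or which cells carry it. The submitters describe the 3 libraries of a group as biological replicates, though a smaller number is also mentioned, and they tie no library to an animal.

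Most processed pseudogenes cannot make the protein of their source gene, but some are transcribed, and highly expressed genes such as those for ribosomal proteins have left many copies. In RNA sequencing a read from such a copy and a read from its source gene can have the same letters, so the way reads with several possible origins are handled decides which gene receives them. Neither that handling nor the use of strand in counting is stated in the labels. A value for a near-identical copy below is therefore a count of reads assigned to it, and such copies are uncertain.

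The sequences of 5 members whose values the results turn on, and of the gene with the highest mean, show how close the copies are. They are from the GENCODE M21 transcripts on GRCm38, 5′ to 3′ on the strand of each gene. Each stretch is set beside the same stretch of the closest protein-coding transcript, and capitals mark the letters that differ. Positions in the substitutions count from 1 at the A of the coding gene's start codon, with the coding gene's base first. Gm10123 at chr9:96895658-96895777 (plus strand) had the same letters as the coding sequence of Ppia, the peptidyl-prolyl isomerase cyclophilin A, over all 490 of its bases, of which the first 120 are shown.
Gm10123 and Ppia: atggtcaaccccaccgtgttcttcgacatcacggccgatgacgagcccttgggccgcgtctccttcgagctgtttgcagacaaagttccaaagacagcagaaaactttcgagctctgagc
Gm10736 at chr13:111593534-111593611 (minus strand) was 78 bases long and had the letters of the whole coding sequence of Rpl41, a very small ribosomal protein.
Gm10736 and Rpl41: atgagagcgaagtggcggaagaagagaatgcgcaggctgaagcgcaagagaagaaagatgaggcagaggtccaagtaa
Rpl39-ps at chr15:102635054-102635173 (plus strand) differed from its parent Rpl39, a ribosomal protein gene on X, at 1 of 150 aligned bases, T96C.
Rpl39-ps: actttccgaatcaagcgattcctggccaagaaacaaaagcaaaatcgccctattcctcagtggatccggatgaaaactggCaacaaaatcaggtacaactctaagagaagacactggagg
Rpl39: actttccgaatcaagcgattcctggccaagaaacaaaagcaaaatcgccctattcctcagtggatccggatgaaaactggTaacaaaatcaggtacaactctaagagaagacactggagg
Ak3l2-ps at chr2:72634207-72634326 (plus strand) differed from Ak4, a mitochondrial adenylate kinase, at 3 of 672 bases, and the stretch holds A285G and G378A.
Ak3l2-ps: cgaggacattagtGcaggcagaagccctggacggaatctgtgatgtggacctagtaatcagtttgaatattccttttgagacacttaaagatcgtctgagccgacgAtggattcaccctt
Ak4: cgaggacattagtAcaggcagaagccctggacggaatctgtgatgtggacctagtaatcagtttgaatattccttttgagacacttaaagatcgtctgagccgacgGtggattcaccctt
Gm2606 at chr15:12575412-12575531 (plus strand) differed from the glycolytic enzyme gene Gapdh at 1 of 1002 bases, C583T.
Gm2606: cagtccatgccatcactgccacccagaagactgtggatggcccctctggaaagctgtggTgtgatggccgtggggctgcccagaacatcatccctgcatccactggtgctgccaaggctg
Gapdh: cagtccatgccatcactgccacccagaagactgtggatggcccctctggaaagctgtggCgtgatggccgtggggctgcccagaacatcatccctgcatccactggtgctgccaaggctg
Gm4761 at chr6:67414886-67415005 (minus strand) differed from Rps7, a ribosomal protein gene, at 42 of 582 bases, 13 of them in the stretch shown.
Gm4761: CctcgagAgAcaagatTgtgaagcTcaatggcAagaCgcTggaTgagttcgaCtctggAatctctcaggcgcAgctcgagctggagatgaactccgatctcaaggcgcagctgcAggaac
Rps7: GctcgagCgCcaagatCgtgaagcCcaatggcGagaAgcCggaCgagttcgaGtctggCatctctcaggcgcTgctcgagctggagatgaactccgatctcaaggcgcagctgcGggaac

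The closeness seen in those stretches held for most members. A closest protein-coding transcript was found for 389 of 392, with a median identity of 99.2% over the aligned bases. Of the members, 219 were at least 99% identical to that transcript, 55 were identical over their full length, and 26 were below 90%. Windows of 100 bases were used to ask how much of each member had letters found in no transcript of another gene. The median member had such letters in 43.9% of its windows, while 58 members had none, 47 had only such windows, and 3 were shorter than a window. The members were 78 to 4640 bases long with a median of 559, and 363 had a single annotated exon. In 29 members 1 group mean was below the level rule, 22 with the NSUN2-KO mean at or above 1 FPKM and 7 with the NC mean.

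Many members lay in other genes or carry another annotation elsewhere. In all, 85 lay wholly within another gene with a mean of at least 1 FPKM, 36 of them on its strand and 49 only on the opposite strand. RefSeq's gene table for GRCm38.p6 matched 329 members and gave 319 as pseudogenes and 10 as protein-coding. The 10 included Gm12250, which RefSeq lists with the synonym Irgb10 of an interferon-induced GTPase, and the histone copy H3f3c.

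The members were a small share of the RNA and most were low. They took 0.219%, 0.228% and 0.221% of the assigned reads in NSUN2-KO replicates 1, 2 and 3, and 0.217%, 0.212% and 0.218% in NC replicates 1, 2 and 3. All 3 NSUN2-KO libraries were above all 3 NC libraries in this share, by a small margin. Libraries held 35019033 to 45636131 reads, and the median over members of the lowest library's count was 49 reads, against 944 reads over all 9443 genes tested. Mean levels ran from 1.00 to 237 FPKM with a median of 2.87, and 75 members reached 10 FPKM, 4 reached 100 FPKM and 144 were below 2 FPKM. Just inside the rule were Gm15694 and Gm5881 at 1.004 FPKM and Rps12-ps9 at 1.03 FPKM. Just outside were Gm4482 at 0.998 FPKM, Gm11414 at 0.979 FPKM and Gm17195 at 0.977 FPKM.

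**Figure D1:**
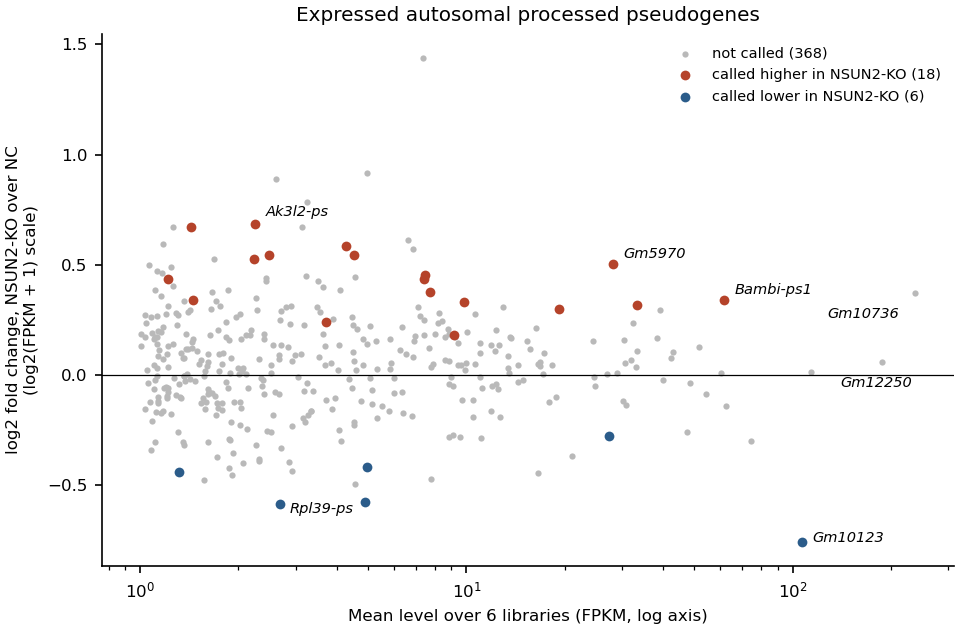
Each point is 1 of the 392 processed pseudogenes, with its mean FPKM over 6 libraries on a log axis and its log2 fold change, NSUN2-KO over NC, on the other. Red points passed the test as higher in NSUN2-KO (18), blue points as lower (6) and grey points did not pass; Gm10123 is the lowest of the called points, and the 2 highest levels, Gm10736 and Gm12250, were not called.

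Of the 10 members with the highest means, 8 did not pass the test. Gm10736, the copy of Rpl41, had 409, 231 and 170.3 FPKM in NSUN2-KO and 147, 297 and 169.9 FPKM in NC. Its groups overlapped, and the spread within each group was wide (log2 fold change 0.37, SE 0.34, adjusted p = 0.547). Gm12250, closest to the GTPase gene Gm5431 at only 68.5% identity, had 187, 190.5 and 196 FPKM in NSUN2-KO and 191, 175 and 185 FPKM in NC. These also overlapped (adjusted p = 0.384), although every window of Gm12250 had letters found in no other gene. Gm21399, a copy of the peroxidase gene Prdx1, averaged 114 ± 14.5 FPKM in NSUN2-KO and 113 ± 13.5 FPKM in NC (SD, n = 3 each).

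The next in level were Dynlt1-ps1, Gm6055, Gm13835, Eif4a-ps4 and Tpt1-ps3. Dynlt1-ps1, identical to coding transcripts of 3 dynein light chain genes, had 78.3, 68.6 and 54.6 FPKM in NSUN2-KO and 76.4, 81.4 and 88.0 FPKM in NC (adjusted p = 0.162). Gm6055, a copy of the autophagosome protein gene Map1lc3b, averaged 59.3 ± 4.11 FPKM in NSUN2-KO and 65.5 ± 4.25 FPKM in NC. Gm13835, a full-length identical copy of the proteasome subunit gene Psma3, averaged 60.6 ± 1.98 FPKM in NSUN2-KO and 60.1 ± 0.784 FPKM in NC. Eif4a-ps4, closest to the translation initiation helicase gene Eif4a1, averaged 52.7 ± 2.87 FPKM in NSUN2-KO and 55.9 ± 1.79 FPKM in NC. Tpt1-ps3, identical to part of Tpt1, averaged 54.0 ± 8.25 FPKM in NSUN2-KO and 49.0 ± 1.82 FPKM in NC (SD, n = 3 each). None of these 5 passed the test. The remaining members of the 10, Gm10123 and Bambi-ps1, did and are described below.

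In FPKM, which divides reads by annotated gene length, some copies stood above the gene they are named for. A parent gene could be read from the name or description of 81 members, giving 73 distinct parents, and the member was above its parent in 14 of the 81. The median ratio of a member's mean FPKM to its parent's was 0.275. Bambi-ps1 was 87.7 times its parent Bambi, a decoy receptor of the TGF-β family, and Rps10-ps2 was 73.6 times the ribosomal protein gene Rps10. Bambi had 0.780, 0.786 and 0.644 FPKM in NSUN2-KO and 0.693, 0.706 and 0.608 FPKM in NC, and Rps10 averaged 0.371 ± 0.156 FPKM in NSUN2-KO and 0.363 ± 0.116 FPKM in NC. Rps10-ps2 averaged 27.1 ± 2.40 FPKM in NSUN2-KO and 26.9 ± 1.52 FPKM in NC (SD, n = 3 each). Rps10 had only 18 to 48 reads a library, and the ratio of Rps10-ps2 to it ran from 57.5 to 121 over the libraries.

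Mpc1-ps was 13.0 times Mpc1, a subunit of the mitochondrial pyruvate carrier. It had 45.8, 43.2 and 40.1 FPKM in NSUN2-KO and 48.2, 56.3 and 50.7 FPKM in NC. Its groups did not overlap, and its log2 fold change of -0.26 (SE 0.07) missed the threshold with an adjusted p of 0.0517. Rpl17-ps10, at 2.65 times Rpl17, had 42.0, 43.3 and 43.9 FPKM in NSUN2-KO and 29.1, 36.4 and 40.1 FPKM in NC, also without overlap (adjusted p = 0.114). Pdcd5-ps and Impdh2-ps were 2.40 and 2.12 times their parents, and neither passed the test. The order was not always kept by reads. Over the 6 libraries Pdcd5-ps had 4.31 to 5.70 CPM (reads scaled to the library's total) and Pdcd5 had 10.5 to 14.5 CPM. Impdh2-ps was below Impdh2 in NSUN2-KO replicate 2 and NC replicates 1 and 2. Rpl17-ps10 was below Rpl17 in NC replicate 1 only. Bambi-ps1, Rps10-ps2 and Mpc1-ps were above their parents by reads in every library. In NSUN2-KO replicate 1 Bambi-ps1 had 42.1 CPM and Bambi 3.94 CPM.

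The study's comparison, NSUN2-KO against NC, asks what loss of NSUN2 changes in M1-polarized macrophages. Nsun2 itself had 0.967, 1.36 and 0.863 FPKM in NSUN2-KO and 1.88, 2.04 and 1.84 FPKM in NC, so the groups did not overlap and its reads were lower but not absent in the knockout libraries (log2 fold change -0.51, SE 0.10, adjusted p = 0.0228). The Y-linked Ddx3y, Eif2s3y, Uty and Kdm5d were at 0 in all 3 NSUN2-KO libraries and Xist was higher in them, with 30.6 ± 1.20 FPKM in NSUN2-KO and 14.5 ± 0.881 FPKM in NC. The members are autosomal, but group and sex chromosome content cannot be told apart in these 6 libraries. All 8 macrophage markers were at or above 1 FPKM, and their summed level was 3233 to 3274 FPKM in NSUN2-KO and 3853 to 3942 FPKM in NC. Most of that gap came from Lyz2, with 1163 ± 47.1 FPKM in NSUN2-KO and 1736 ± 31.2 FPKM in NC. Cd68, Fcgr1 and Spi1 were also called lower. Mertk had 55.9 ± 2.44 FPKM in NSUN2-KO and 61.6 ± 1.32 FPKM in NC, lower without overlap but not called (limma adjusted p = 0.0743). Adgre1 averaged 692 ± 21.2 FPKM in NSUN2-KO and 645 ± 12.9 FPKM in NC, higher without overlap (SD, n = 3 each). Csf1r and Itgam overlapped between the groups, and none of Adgre1, Csf1r and Itgam was called. Summed levels of 6 neutrophil markers were 57.1 to 61.5 FPKM in NSUN2-KO and 71.1 to 77.8 FPKM in NC. Those of 5 dendritic cell markers were 8.19 to 9.51 FPKM in NSUN2-KO and 5.09 to 6.18 FPKM in NC. The neutrophil markers Csf3r and S100a9 were called lower and the dendritic cell marker Ccr7 higher. The others in these lists were not called or were too low to be tested. No marker of T and NK cells (6 genes), B cells (4), erythroid cells (4), mast cells (3) or stroma (3) averaged 1 FPKM. The stroma markers summed to 0.371 to 0.496 FPKM in NSUN2-KO and at least 1.34 FPKM in every NC library, mostly from Col1a1 with 0.279 ± 0.0523 FPKM in NSUN2-KO and 0.950 ± 0.0362 FPKM in NC (SD, n = 3 each). The part of these marker differences in the results was not tested, and in bulk RNA fewer cells of a type and less RNA per cell cannot be told apart.

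Of the 392 members, 24 passed the test in this comparison, with an adjusted p below 0.05 in limma's test over all 9443 tested genes. That is 6.12% of the members, against 8.49% of all tested genes. Higher in NSUN2-KO were 18 members, or 4.59%, against 4.19% of all tested genes, and lower were 6 members, or 1.53%, against 4.3% of all tested genes. The share of members called higher was near that of all genes, and the share called lower was below it. The groups did not overlap in 53 members, 37 higher and 16 lower in NSUN2-KO, or 13.5%, against 31.1% of all tested genes. At an unadjusted p below 0.05, 68 members passed (17.3%), against 25.5% of all tested genes. The median log2 fold change of the members was 0.05, against -0.01 for all tested genes, and 236 members had a positive value and 156 a negative one. Standard errors were larger for the members, with a median of 0.14 on the log2 scale against 0.06 for all tested genes. None of the 24 changed by 2-fold or more on the scale of log2(FPKM + 1), and 5 changed by over 1.5-fold. Adding 1 FPKM shrinks the changes of low genes. With 0.1 FPKM added instead, the largest log2 fold changes among the 24 were 1.11 for Gm4761 and 0.99 for Ak3l2-ps.

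**Figure D2:**
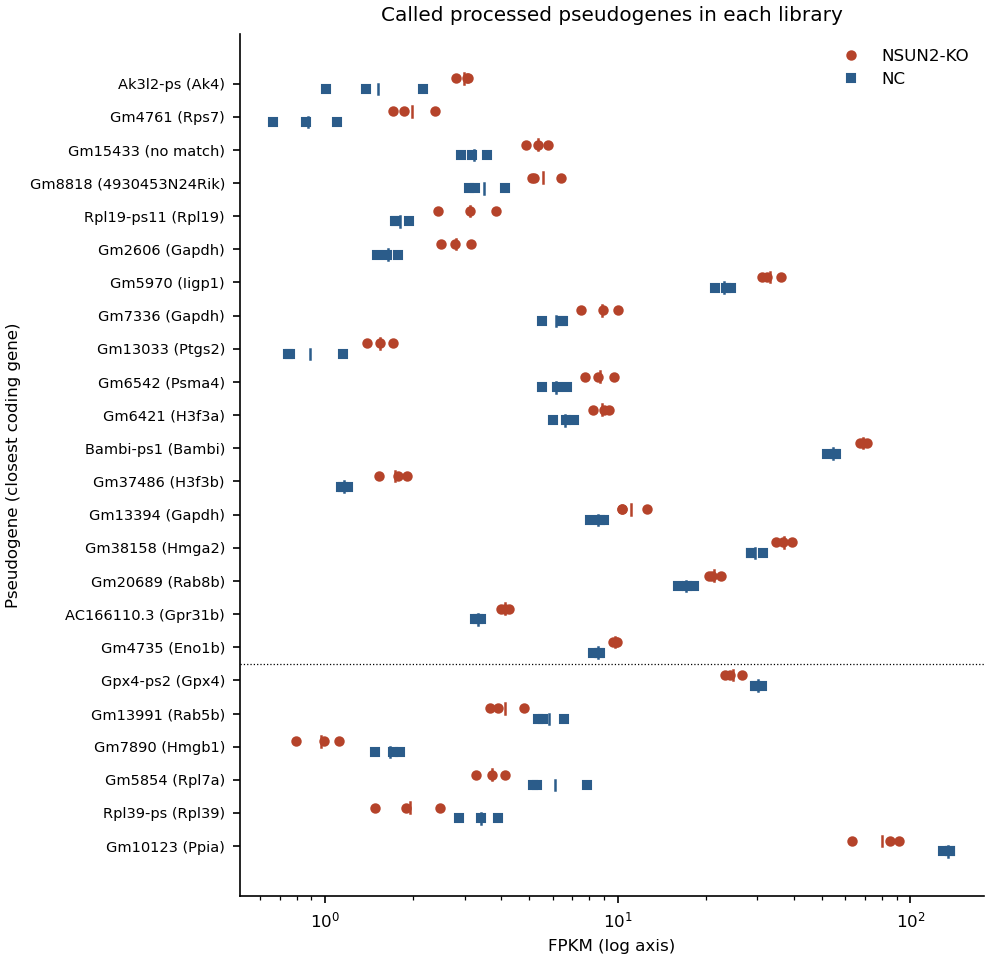
FPKM on a log axis of the 24 called processed pseudogenes in each library, with NSUN2-KO as red circles above NC as blue squares and short lines at the group means; the closest coding gene is in brackets. In all 24 the groups do not overlap, and Gm10123 has the widest gap among the 6 lower ones, which stand under the dotted line.

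The 6 members lower in NSUN2-KO were copies of 6 different genes. Gm10123 had 85.5, 91.3 and 63.0 FPKM in NSUN2-KO and 137, 129 and 137 FPKM in NC. All NSUN2-KO libraries were below all NC libraries, with replicate 3 the lowest (log2 fold change -0.76, SE 0.12, adjusted p = 0.0107). Rpl39-ps had 1.48, 1.89 and 2.47 FPKM in NSUN2-KO and 3.43, 3.90 and 2.88 FPKM in NC, from only 9 to 27 reads a library (log2 fold change -0.59, SE 0.13). All of its windows had letters found in no other gene, although the T96C difference shown above is its only one from Rpl39 in the aligned bases.

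Gm5854, closest to the ribosomal protein gene Rpl7a at 95.7% identity, had 3.28, 4.13 and 3.72 FPKM in NSUN2-KO and 5.29, 7.85 and 5.15 FPKM in NC (log2 fold change -0.57). Gm13991, closest to the endosomal GTPase gene Rab5b, had 3.92, 3.65 and 4.81 FPKM in NSUN2-KO and 6.55, 5.56 and 5.36 FPKM in NC (log2 fold change -0.42). Gm7890, closest to the chromatin protein gene Hmgb1 at 93.1% identity and lying within Malsu1 on the opposite strand, had 1.12, 0.996 and 0.797 FPKM in NSUN2-KO and 1.81, 1.71 and 1.49 FPKM in NC. Its NSUN2-KO mean of 0.970 FPKM was below the level that the rule asks of the 6 libraries together. Gpx4-ps2, named for the lipid peroxidase gene Gpx4, had 24.2, 26.6 and 23.3 FPKM in NSUN2-KO and 29.7, 31.2 and 29.4 FPKM in NC (log2 fold change -0.28, SE 0.05, adjusted p = 0.0210).

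Among the 18 members higher in NSUN2-KO, Ak3l2-ps and Gm4761 had the highest log2 fold changes. Ak3l2-ps, the near-identical copy of Ak4, had 3.07, 3.05 and 2.81 FPKM in NSUN2-KO and 1.39, 1.01 and 2.17 FPKM in NC (log2 fold change 0.68, SE 0.15, adjusted p = 0.0318). Gm4761, the more divergent copy of Rps7, had 1.71, 1.86 and 2.38 FPKM in NSUN2-KO and 0.667, 0.863 and 1.10 FPKM in NC (log2 fold change 0.67, SE 0.12, adjusted p = 0.0149). The NC mean of Gm4761, 0.876 FPKM, was below 1 FPKM, and its libraries held 15 to 52 reads. Rpl19-ps11, which differs from the ribosomal protein gene Rpl19 by G191A alone, had 2.44, 3.13 and 3.83 FPKM in NSUN2-KO and 1.75, 1.74 and 1.94 FPKM in NC (log2 fold change 0.54).

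Bambi-ps1 and Gm5970 combined a high level with a small spread. Bambi-ps1 at chr2:122466935-122467526, 88.6% identical to Bambi, had 71.0, 69.1 and 67.1 FPKM in NSUN2-KO and 51.8, 55.4 and 55.7 FPKM in NC. The replicates of each group lay close together and the groups were well apart (log2 fold change 0.34, SE 0.04, adjusted p = 0.00291). Gm5970, 88.1% identical to the immunity-related GTPase gene Iigp1, had 32.4, 31.1 and 36.1 FPKM in NSUN2-KO and 24.4, 23.4 and 21.5 FPKM in NC (log2 fold change 0.50, SE 0.06, adjusted p = 0.00439). It lies wholly within Gm4951 on the same strand, so reads of the pair are uncertain.

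Gm15433 was the called member with no match to a protein-coding transcript. It had 5.36, 4.86 and 5.80 FPKM in NSUN2-KO and 3.57, 3.19 and 2.92 FPKM in NC (log2 fold change 0.59, SE 0.08, adjusted p = 0.00554). Gm8818, closest to 4930453N24Rik and within Lamc1 on the opposite strand, had 6.39, 5.09 and 5.16 FPKM in NSUN2-KO and 4.13, 3.11 and 3.24 FPKM in NC. Gm6542, closest to the proteasome subunit gene Psma4 and within Ankhd1 on the same strand, had 9.73, 8.60 and 7.72 FPKM in NSUN2-KO and 6.74, 5.52 and 6.22 FPKM in NC. In each of these 3 members the lowest NSUN2-KO library was above the highest NC library.

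Histone and high-mobility-group copies made up another 3 of the 18. Gm6421, closest to the histone H3.3 gene H3f3a, had 8.21, 8.99 and 9.37 FPKM in NSUN2-KO and 6.64, 6.03 and 7.12 FPKM in NC (log2 fold change 0.38). Gm37486, closest to the other H3.3 gene H3f3b, averaged 1.74 ± 0.185 FPKM in NSUN2-KO and 1.16 ± 0.0341 FPKM in NC (SD, n = 3 each). Gm38158, closest to Hmga2 and within Sdccag8 on the same strand, had 34.9, 36.7 and 39.6 FPKM in NSUN2-KO and 28.6, 31.4 and 28.5 FPKM in NC (log2 fold change 0.32). Of these, Gm38158 stood at 21.8 times the FPKM of Hmga2, whose annotated length is 6772 bases. By reads the pair was close. Gm38158 had 11.8, 12.5 and 13.6 CPM in NSUN2-KO and 9.74, 10.7 and 9.69 CPM in NC. Hmga2 had 12.1, 10.2 and 12.3 CPM in NSUN2-KO and 9.61, 9.36 and 8.82 CPM in NC.

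The other called members moved by smaller amounts or from low levels. Gm13033, only 77.6% identical to the prostaglandin synthase gene Ptgs2, had 1.39, 1.54 and 1.71 FPKM in NSUN2-KO and 0.759, 1.16 and 0.749 FPKM in NC, an NC mean under 1 FPKM. Gm20689, a full-length identical copy of part of the GTPase gene Rab8b, averaged 21.3 ± 1.06 FPKM in NSUN2-KO and 17.2 ± 1.03 FPKM in NC. Its log2 fold change of 0.30 was 0.19 and not called (adjusted p = 0.118) when the trend over GC content and length was removed. AC166110.3, named for the receptor gene Gpr31b, averaged 4.11 ± 0.130 FPKM in NSUN2-KO and 3.33 ± 0.0724 FPKM in NC. Gm4735, closest to the enolase gene Eno1b, averaged 9.82 ± 0.193 FPKM in NSUN2-KO and 8.55 ± 0.251 FPKM in NC (SD, n = 3 each). Gm2606, Gm7336 and Gm13394, all copies of Gapdh, complete the 18 and are described with that gene.

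**Figure D3:**
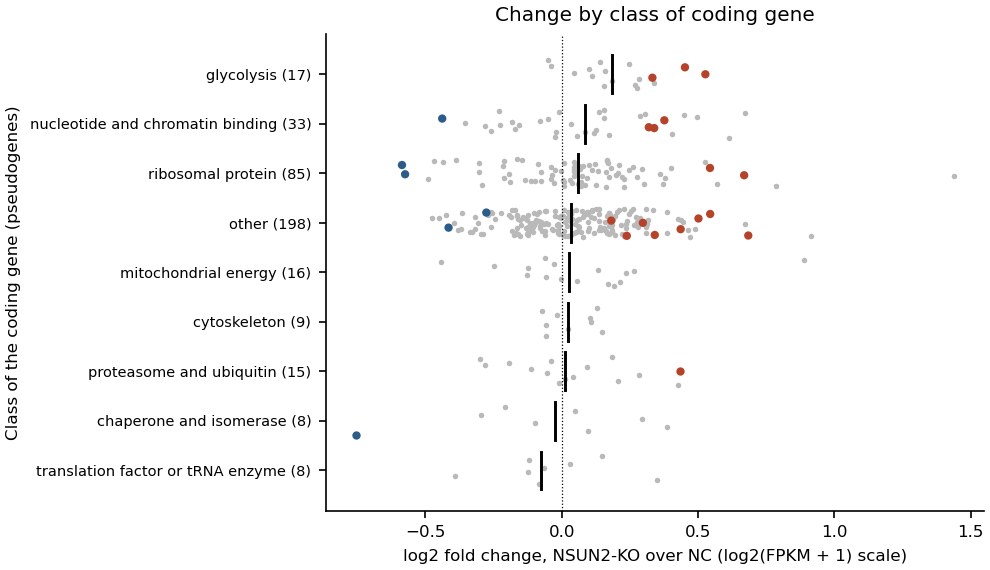
Log2 fold change, NSUN2-KO over NC, of each member, grouped by the class of its closest or named coding gene for classes of at least 8 members, with the class size in brackets and a bar at the class median. Coloured points passed the test; the medians of the classes lie between -0.08 and 0.19.

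Grouped by the function of the source gene, the members showed medians near 0. The source gene is the named parent or, without one, the gene of the closest coding transcript. Ribosomal protein copies were the largest named class, with 85 members from 57 genes, of which 2 were called higher and 2 lower (4.71% called, against 8.49% of all tested genes), with a median log2 fold change of 0.06. Of 33 copies of nucleotide- and chromatin-binding genes, 3 were called higher and 1 lower (12.1% called; median 0.08). Of 17 copies of glycolysis genes, 3 were called higher and none lower (17.6% called; median 0.19), the 3 being copies of Gapdh. The class list holds Eno1 but not Eno1b, so the called enolase copy Gm4735 is counted outside it. Of 15 proteasome and ubiquitin copies 1 was higher, of 8 chaperone and isomerase copies 1 was lower, and none of 16 mitochondrial energy, 9 cytoskeleton and 8 translation factor copies was called by limma. At an unadjusted p below 0.05 those last 3 classes had 1, 0 and 2 members, and limma voom on recovered reads called 1, 0 and 0 of them. Of the 47 members with letters found nowhere else in every window, 8 were called (17.0%), against 3 of the 58 with none (5.17%) and 8.49% of all tested genes. By voom the 47 had 5 calls (10.6%), against 14.9% of all tested genes, and their groups did not overlap in 21.3%, against 31.1%. The differences between those shares were not tested.

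A source gene was tested for 22 of the 24 called members, with Gapdh counted for each of its 3 called copies. In 8 of these 22 pairs the source gene was called, or 36.4%. Of the 290 distinct source genes tested for all members 10.7% were called, and of all tested genes 8.49%. The first share counts pairs and the others count genes. The difference between those shares was not tested. In 6 pairs the pseudogene and the coding gene went the same way. Ak4 had 13.2, 11.6 and 13.5 FPKM in NSUN2-KO and 7.89, 7.22 and 6.98 FPKM in NC, a log2 fold change of 0.72 beside 0.68 for Ak3l2-ps. Ptgs2 at 0.57, Iigp1 at 0.25, Psma4 at 0.20 and H3f3b at 0.11 on the same log2 scale were higher with their copies, and Gpx4 at -0.22 was lower with Gpx4-ps2. On leaving out each library, Ak4, Ptgs2 and Iigp1 were called in all 6 fits and Psma4 in 1 (adjusted p 0.0282 to 0.136). Gpr31b was called in 2 of the 6 (0.0156 to 0.0786). Gpx4 (0.0533 to 0.139) and H3f3b (0.0790 to 0.187) were called in none, and both also lost their calls when the trend over GC content and length was removed (adjusted p = 0.196 for Gpx4 and 0.152 for H3f3b). The FPKM ratio of Ak3l2-ps to Ak4 was 0.235 ± 0.0274 in NSUN2-KO and 0.209 ± 0.0901 in NC (SD, n = 3 each), with overlapping groups.

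**Figure D4:**
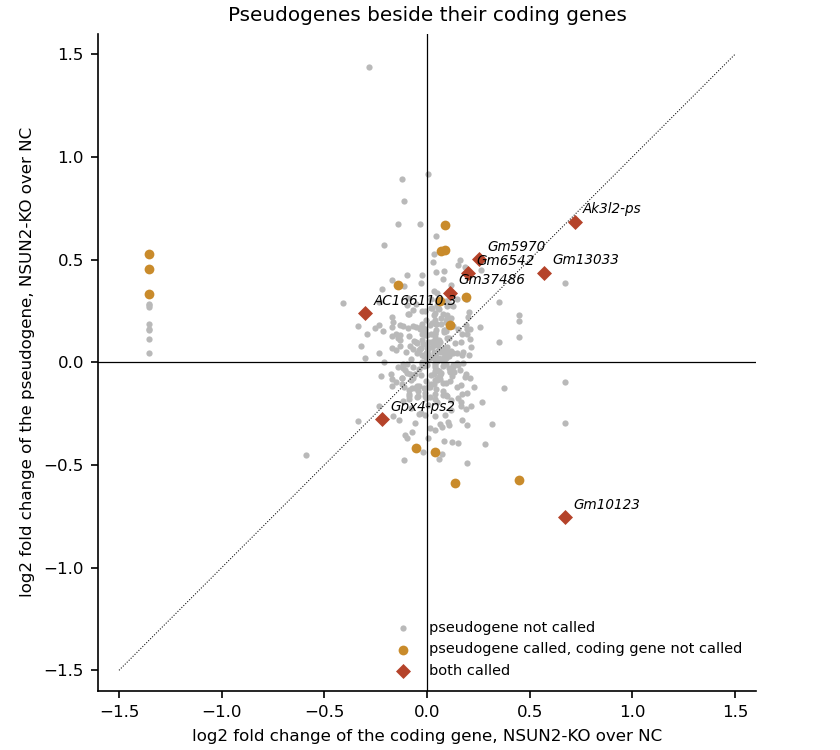
Log2 fold change, NSUN2-KO over NC, of each member against that of its named parent or closest coding gene, with a dotted line of equal change. Orange points are called members whose coding gene was not called, and labelled points are the 8 pairs with both called: 6 lie in the quadrants of the same direction, and Gm10123 and AC166110.3 lie in those of opposite direction.

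In the other 2 pairs the directions were opposite. AC166110.3 was higher in NSUN2-KO, whereas its named parent Gpr31b had 12.3, 11.4 and 12.3 FPKM in NSUN2-KO and 13.9, 15.3 and 15.9 FPKM in NC (log2 fold change -0.30, SE 0.06, adjusted p = 0.0223). Their FPKM ratio was 0.343 ± 0.00918 in NSUN2-KO and 0.223 ± 0.0195 in NC (SD, n = 3 each), without overlap, at an exact two-sided permutation p of 0.1. This is the smallest p that 3 against 3 libraries can give. Both genes already differed without overlap in opposite directions, so the ratio could not overlap and its p adds no support. In AC166110.3, which has 2 exons, the alignment to Gpr31b covered 18.7% of the bases. The other 2 listed copies of Gpr31b, AC117241.2 and AC241886.2, had log2 fold changes of 0.23 and 0.02 and were not called. Of the 3 copies, AC166110.3 included, 2 were higher in NSUN2-KO without overlap, beside 31.1% of all tested genes without overlap in either direction.

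**Figure D5:**
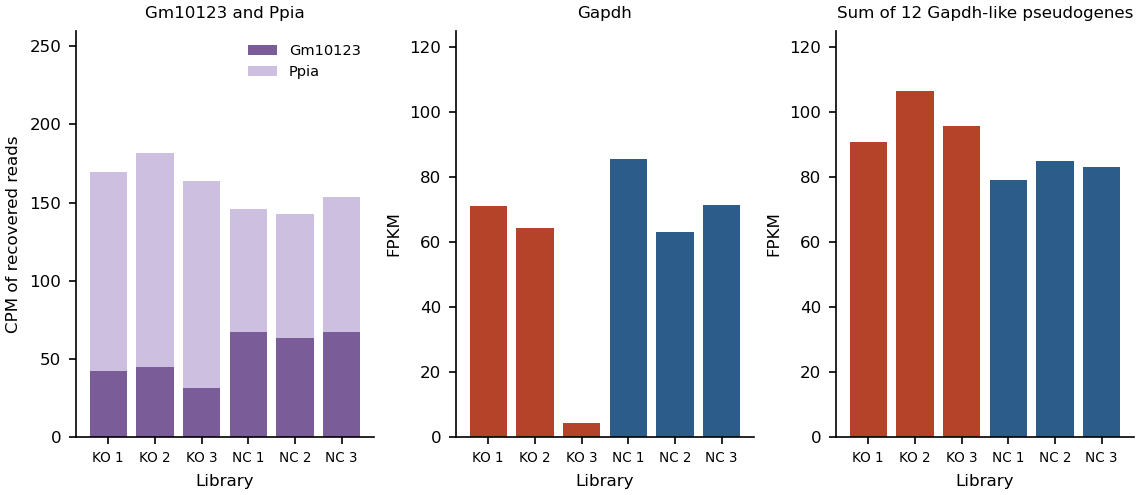
Left, CPM (reads scaled to the library's recovered total) assigned to Gm10123 (dark) and Ppia (light), stacked, in each library, with NSUN2-KO before NC. Middle and right, FPKM of Gapdh and the summed FPKM of its 12 processed pseudogenes in each library; Gapdh is at 4.11 FPKM in NSUN2-KO replicate 3, where the sum over the copies is 95.7 FPKM.

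Gm10123 and Ppia, which share all their letters over the copy, moved in opposite directions. Ppia had 36.3, 38.9 and 37.3 FPKM in NSUN2-KO and 22.4, 22.6 and 24.6 FPKM in NC, so it was higher in every NSUN2-KO library (log2 fold change 0.67, SE 0.05, adjusted p = 0.000458). The FPKM ratio of Gm10123 to Ppia was 2.13 ± 0.381 in NSUN2-KO and 5.79 ± 0.272 in NC (SD, n = 3 each, exact two-sided permutation p = 0.1). That p was fixed in advance, because both genes already differed without overlap in opposite directions. The ratio divides reads by annotated lengths of 490 and 3508 bases. By reads, Gm10123 was below Ppia in every library. Gm10123 had 42.0, 44.8 and 31.2 CPM in NSUN2-KO and 67.1, 63.4 and 67.2 CPM in NC. Ppia had 127.8, 136.8 and 132.4 CPM in NSUN2-KO and 78.9, 79.5 and 86.5 CPM in NC. Reads assigned to the pair together came to 169.7, 182 and 164 CPM (reads scaled to the library's total) in NSUN2-KO and 146, 143 and 154 CPM in NC, as the stacked bars show. The sum was thus higher in every NSUN2-KO library, by less than Ppia alone. No 100-base window of Gm10123 had letters of its own, so how reads of the pair were divided cannot be checked from the table. Of the other 3 Ppia copies, Gm13400 had a log2 fold change of 0.39, Gm5711 of -0.30 and Gm13493 of -0.10, and none was called.

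The 12 copies of Gapdh, a set singled out after its values were seen, all had positive log2 fold changes, from 0.05 to 0.53. Gm2606 had 2.48, 2.79 and 3.16 FPKM in NSUN2-KO and 1.78, 1.63 and 1.504 FPKM in NC (log2 fold change 0.53, SE 0.08, adjusted p = 0.0109). Gm7336 had 7.51, 8.93 and 10.03 FPKM in NSUN2-KO and 5.52, 6.45 and 6.49 FPKM in NC, and Gm13394 had 10.4, 12.6 and 10.3 FPKM in NSUN2-KO and 8.02, 8.69 and 9.02 FPKM in NC. In these 3 called copies and in 3 others, Gm12033, Gm12537 and Gm13292, the groups did not overlap, 6 of the 12 beside 31.1% of all tested genes. Gm5559, the copy with the highest level, had 29.1, 39.9 and 28.2 FPKM in NSUN2-KO and 27.0, 27.2 and 31.5 FPKM in NC and was not called. Gm5345, the copy with letters of its own in all windows (90.7% identity), had 17.9, 18.7 and 19.2 FPKM in NSUN2-KO and 18.4, 19.3 and 16.3 FPKM in NC, with overlapping groups.

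Gapdh itself had 71.1, 64.2 and 4.11 FPKM in NSUN2-KO and 85.6, 63.2 and 71.4 FPKM in NC. NSUN2-KO replicate 3 was far below the other 5 libraries, and the groups otherwise overlapped (log2 fold change -1.36, SE 0.89, adjusted p = 0.394). Without that library the log2 fold change was -0.11. The summed level of the 12 copies was 90.7, 106 and 95.7 FPKM in NSUN2-KO and 79.1, 84.8 and 83.2 FPKM in NC, without overlap and with no drop in replicate 3. This sum includes the called copies and was formed with their values in view, so it is given as a description only.

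Among the 70 tested parent genes, 5 were called higher and 3 lower, 11.4% against the 8.49% of all tested genes, with a median log2 fold change of 0.03. With genes on X and Y left out, 66 parents were tested, of which 4 were called higher and 3 lower. The 8 genes called among the 70 are named because the counts are small. Higher in NSUN2-KO were the glycolysis genes Pgam1 (0.21), Pgk1 (0.17) and Ldha (0.16), the mitophagy receptor gene Bnip3l (0.20) and the ribosomal protein gene Rps25 (0.21), in log2 fold change. Their copies Pgam1-ps2 (0.25), Pgk1-rs7 (0.14), Ldha-ps2 (-0.04), Bnip3l-ps (0.03) and Rps25-ps1 (-0.21) were not called. Lower were Gpx4, Gpr31b and the lysosomal membrane protein gene Cd63 (-0.34), whose copy Cd63-ps had -0.29 and was not called. Gpx4 with Gpx4-ps2 was the pair of a named parent and its copy with both called in the same direction.

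How far the calls depend on single libraries bears on all of them. Of the 24 calls, 11 were kept without NSUN2-KO replicate 1, 10 without NSUN2-KO replicate 2, 14 without NSUN2-KO replicate 3, 12 without NC replicate 1, 7 without NC replicate 2 and 8 without NC replicate 3. Gm10123, Bambi-ps1, Gm5970, Gm2606 and Gm15433 were called in all 6 of these fits, with adjusted p-values up to 0.0424 for Gm10123, 0.0204 for Bambi-ps1, 0.0211 for Gm5970, 0.0460 for Gm2606 and 0.0285 for Gm15433. Gm5854, Gm7890, Gm4735, AC166110.3, Gm13394 and Gm37486 were called in none of them, with adjusted p-values between 0.0511 and 0.145. No called member changed direction in any alternative run.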

How the data were processed

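The members and gene lists were chosen with earlier results of these data known. Per the labels' protocols, RNA was isolated with TRIzol before library preparation with a kit. The submitters' processing notes name HISAT2 2.0.5, featureCounts 1.5.0-p3, DESeq2 1.20.0, fastp, CASAVA 1.8 and the build GRCm38 (mm10), without roles or settings. The authors deposited FPKM values beside each gene's length in bases, the other unit used. Multiplied by length, 100% of FPKM values were whole reads within 0.01 reads, and these reads were recovered. Columns of unassigned samples numbered 0.

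Genes averaging at least 1 FPKM entered limma 3.58.1 in R 4.3.3. The response was log2(FPKM + 1), with a trend of variance on mean, all 6 libraries and no covariate. Benjamini-Hochberg adjustment ran over 9443 genes. Fold changes on this scale understate the change of low genes. The p-values set the difference between groups against the spread between libraries of a group, and no library is tied to an animal. Closest transcripts came from BLAST 2.17.0 (expectation limit 1e-10) against GENCODE M21 protein-coding transcripts. Windows of 100 bases were compared with the transcripts of all genes, because no genome was used. Named genes were Nsun2, called members, the 10 highest means, the 6 highest ratios to a parent, the 3 genes on each side of the level threshold, and their parents; any other gene named was picked with its values in view. The test was also run on simulated reads drawn independently for each gene, which does not cover reads shared between copies. Alternatives are in the closing section; for voom, trimmed-mean scaling was computed from the recovered reads. Figures used Python 3.11.15, pandas 2.3.3 and matplotlib 3.10.9.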

Additional observations from a re-analysis of the deposited data

How the results depend on the processing

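Members called higher and lower in NSUN2-KO numbered 18 and 6 as reported, and no call changed direction in any alternative run. Their numbers were 3 and 0 when every gene with a read was tested, 14 and 3 when variance was not modelled on the mean, 16 and 3 by limma voom, 12 and 5 among genes of at least 5 FPKM (fewer members), and 7 to 21 and 2 to 7 on leaving out each library. Of the reported 24 calls, 3 were kept with every gene tested, 17 without the variance trend and 15 by voom. Voom lost the lower members Rpl39-ps, Gm7890 and Gm13991. Among the higher members it lost Gm4735, Gm20689, Gm37486, Gm6421, Gm13033 and Rpl19-ps11. The adjusted p of these lost calls by voom reached 0.323, for Gm37486. Testing every gene took the number adjusted over to 24414, and the variance trend was refitted over those genes. Parent genes called higher and lower, 5 and 3 as reported, were 2 and 1 with every gene tested, 2 and 2 without the variance trend, 9 and 5 by voom, 6 and 2 after removing the trend over GC content and length, and 1 to 4 and 1 to 3 on leaving out each library. All genes called higher and lower, 396 and 406 as reported, were 147 and 118 with every gene tested, 272 and 254 without the variance trend, 779 and 624 by voom, and 149 to 312 and 121 to 283 on leaving out each library. Nsun2 had the same log2 fold change of -0.51 with every gene tested but lost its call (adjusted p = 0.113), and on leaving out each library ranged from -0.61 to -0.44 (adjusted p 0.0123 to 0.0848). The cause of these differences between runs was not tested.

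Replicate numbers did not pair the samples: deviations of same-numbered libraries correlated at -0.0095, -0.030 and 0.0034. With the replicate number as a block, 12 members were called higher and 5 lower, 1 parent higher and 1 lower, and 190 genes higher and 161 lower.

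Log2 fold change had a Spearman correlation with GC content of -0.37 over 9433 tested genes and 0.02 over the 392 members, and with that trend and the one over length removed 18 members were called higher and 7 lower. Of the reported 24 calls 22 were kept, Gm20689 (adjusted p = 0.118) and Gm13033 (0.0725) were lost, and Mpc1-ps was among those gained (0.0327). Leaving out genes on X and Y, chosen after seeing the data, gave 18 and 6 members, and 4 and 3 of 66 tested parents. A median of 49 reads in a member's lowest library limits which small changes could be detected.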
